A study of Homo sapiens with 12 samples.

Results

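The nuclear receptor genes encode transcription factors that share a DNA-binding domain and, in most members, a ligand-binding domain, and they include the receptors for retinoic acid, fatty acids, thyroid hormone, vitamin D and steroids. The genes were chosen by family membership, and 46 of them were analysed among the 19618 protein-coding genes of the annotation. They were grouped from textbook knowledge by the tissue in which each receptor is best known: 3 receptors active in urothelium (PPARG, RXRA and RARG), 14 expressed broadly, 3 immediate early genes and 26 of other tissues. RT112, the human bladder transitional cell carcinoma line used here, grows in DMEM with serum, and the study's methods classed it as wild type for ARID1A. CUT&RUN, which releases the DNA around an antibody's target with a tethered nuclease, was performed with an ARID1A antibody from Abcam, an ARID1A antibody from CST, an antibody to H3K4me3 and an IgG control, 3 replicates each and 12 samples in all. No group carried a treatment or a genetic change, and all groups were of this single line. The deposited lists of 3 groups gave the position of each region after the replicates had been merged, so a value below is a count or a width in 1 merged list and has no replicate error.

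ARID1A is a DNA-binding subunit of the SWI/SNF complex, which moves nucleosomes, and H3K4me3 marks the start sites of active genes. PPARG and RXRA bind DNA together as a heterodimer and drive differentiation of the urothelium, and RARG, a retinoic acid receptor, also pairs with RXRA. Many family members recognise pairs of a short half-site in DNA, and the spacing of the pair favours one heterodimer or another.

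The autosomes and chromosome X carried 37501 regions for Abcam, 32932 for CST and 9765 for H3K4me3, and their median widths were 1486, 1442 and 3046 bp. A promoter was defined as 1 kb on either side of any start site (TSS) of a protein-coding transcript, and a region was counted there when it overlapped the promoter by at least 1 bp. The labelled cell type was checked with marker genes. Both ARID1A antibodies had regions at the promoters of 13 of 16 urothelial markers and H3K4me3 at 11 (38.2 and 53.1% of all genes). Markers of the most differentiated urothelial cells were divided. KRT20, UPK1A and UPK3A had no region, while UPK1B, UPK2 and UPK3B had both antibodies, with H3K4me3 at UPK1B and UPK3B. Of 19 markers of liver, pancreas, blood, stroma, endothelium, nerve and muscle, both antibodies had regions at 2 (VIM and COL1A1) and H3K4me3 at 0.

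Sequences of the regions on which the results turned are given first, from the hg38 reference. They are written 5′ to 3′ in lower case, with capitals marking 3 kinds of word on either strand: the receptor half-site AGGTCA, the AP-1 word TGANTCA and the GC box GGGCGG. The first pair shows the 250 bases before the RefSeq start of PPARG (chr3:12287118-12287367, plus strand) and of RXRA (chr9:134326205-134326454, plus strand).

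PPARG promoter: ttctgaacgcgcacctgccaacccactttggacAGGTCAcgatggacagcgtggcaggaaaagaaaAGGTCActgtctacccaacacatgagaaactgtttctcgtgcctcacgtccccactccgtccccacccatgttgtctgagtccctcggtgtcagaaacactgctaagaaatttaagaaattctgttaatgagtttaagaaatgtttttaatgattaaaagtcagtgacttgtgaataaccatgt

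RXRA promoter: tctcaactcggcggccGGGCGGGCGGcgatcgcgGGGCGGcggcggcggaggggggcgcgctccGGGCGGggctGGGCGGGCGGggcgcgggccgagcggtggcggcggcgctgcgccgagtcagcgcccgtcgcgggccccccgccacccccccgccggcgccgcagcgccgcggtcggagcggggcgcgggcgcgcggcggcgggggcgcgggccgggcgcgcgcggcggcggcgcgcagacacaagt

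The PPARG promoter held 2 half-sites separated by 27 bases, 0 GC boxes and 8 CpG dinucleotides. The RXRA promoter held 0 half-sites, 4 separate runs of GC box words and 59 CpG. The PPARG stretch lay 461 bp from the nearest H3K4me3 region, 991 bp from the nearest CST region and 1156 bp from the nearest Abcam region. The RXRA stretch overlapped H3K4me3 and Abcam regions and lay 82 bp from a CST region.

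The next set shows the central 300 bases of Abcam regions that overlapped CST regions at the 3 urothelial receptors, outside annotated UTRs and printed on the plus strand. The first is the region upstream of the RXRA start (chr9:134324768-134325067). The second lies at an internal start of RARG (chr12:53221272-53221571), a gene on the minus strand. The third is inside PPARG (chr3:12345437-12345736), between its start sites, and holds 2 half-sites in opposite orientation.

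RXRA upstream region: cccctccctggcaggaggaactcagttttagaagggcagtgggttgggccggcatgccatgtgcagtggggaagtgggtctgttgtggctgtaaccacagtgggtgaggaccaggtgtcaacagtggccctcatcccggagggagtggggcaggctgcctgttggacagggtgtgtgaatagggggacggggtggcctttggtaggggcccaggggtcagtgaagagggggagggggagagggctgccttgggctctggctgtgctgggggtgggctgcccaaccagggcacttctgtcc

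RARG internal region: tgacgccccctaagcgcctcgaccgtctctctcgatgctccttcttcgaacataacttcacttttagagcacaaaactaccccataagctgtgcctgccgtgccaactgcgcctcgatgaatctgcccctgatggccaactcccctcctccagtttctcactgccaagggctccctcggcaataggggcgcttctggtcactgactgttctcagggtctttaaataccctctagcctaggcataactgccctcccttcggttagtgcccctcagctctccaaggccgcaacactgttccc

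PPARG internal region: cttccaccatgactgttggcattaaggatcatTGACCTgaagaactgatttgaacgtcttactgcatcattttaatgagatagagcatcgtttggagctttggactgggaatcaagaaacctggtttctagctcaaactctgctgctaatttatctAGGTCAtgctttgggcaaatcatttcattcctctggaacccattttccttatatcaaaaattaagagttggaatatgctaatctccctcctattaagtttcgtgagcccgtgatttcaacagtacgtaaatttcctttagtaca

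The first and second of these held none of the 3 words.

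Regions of both ARID1A antibodies and of H3K4me3 lay at the promoters of all 3 urothelial receptors, and at each receptor ARID1A was found at a first start with H3K4me3 and again at an internal start without it. At PPARG (ENSG00000132170, chromosome 3, 12287368 to 12434356, plus strand) the first group of starts carried an Abcam region (12288523 to 12289908) and a CST region (12288358 to 12289952). Both lay inside an H3K4me3 region of 6078 bp, from 12287828 to 12293905, which was wider than 97.0% of the H3K4me3 list. A further Abcam region of 1644 bp and a CST region of 2041 bp lay over an internal start at 12308834, where the H3K4me3 list had no region.

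RXRA (ENSG00000186350, chromosome 9, 134317098 to 134440585, plus strand) encodes the common partner of PPARs, RARs and several other receptors. Its first coding start, at 134326455, lay between ARID1A regions. On the upstream side, the Abcam region (134323483 to 134326352) ended 103 bp before the start, beside a CST region (134323514 to 134326123). On the other side a CST region began 858 bp after the start and an Abcam region 2029 bp after it. An H3K4me3 region of 7343 bp spanned the whole interval, from 134323755 to 134331097, and was wider than 98.9% of its list. At the second start, 134379295, Abcam (134377708 to 134380800) and CST (134377976 to 134381221) regions lay over the start without H3K4me3.

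RARG (ENSG00000172819, chromosome 12, 53210567 to 53232980, minus strand) had Abcam (53230889 to 53233289) and CST (53230895 to 53233043) regions over its first starts, within an H3K4me3 region of 4138 bp. Its internal starts, at 53220259 to 53220413, lay 12567 bp into the gene. Abcam (53220569 to 53222274) and CST (53220511 to 53222149) regions lay on their upstream side, the Abcam region 156 bp away, and the H3K4me3 list had none there.

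**Figure D1:**
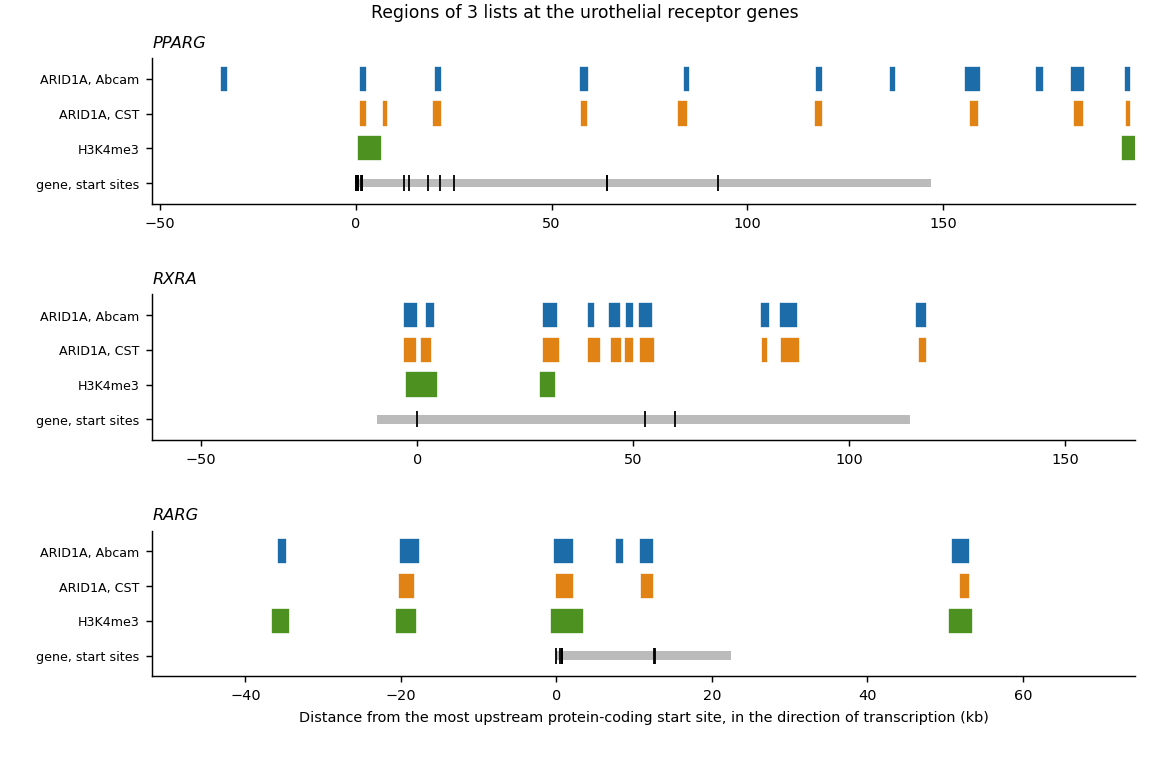
Regions of the 3 lists (bars, to scale) at PPARG, RXRA and RARG against the distance from the first protein-coding start in kb, with the annotated gene in grey and coding starts as black ticks. Each gene has ARID1A bars over the H3K4me3 bar at its first start and a second pair of ARID1A bars at an internal start that has no H3K4me3 bar.

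This pairing was noticed after the values were seen. It was counted for every gene, with start sites within 1 kb of each other joined into clusters. Both antibodies at 1 cluster with H3K4me3 and at another without it were found in 3 of 3 urothelial receptors and in 1 of 43 other receptors, THRB, against 1.71% of all protein-coding genes and 3.85% of genes with at least 2 clusters. Among the 128 start clusters of the family, 32 had both antibodies (against 24.3% of all clusters) and 36 had H3K4me3 (28.1%, against 34.0%). Both antibodies without H3K4me3 were at 8 clusters (6.25%, against 4.19%), and 81 clusters lacked all 3. At the first clusters alone, both antibodies were at 18 of 46 (39.1%, against 34.1%) and H3K4me3 at 21 (45.7%, against 49.5%). Both antibodies without H3K4me3 were found at 7 of 82 later clusters (8.54%), against 4.54% of later clusters of all genes. Outside the urothelial receptors these clusters were at THRB, RARB, NR1H2, NR4A1 and, at its first cluster, NR2E3.

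Counted over all annotated starts, ARID1A lay at 26 of the 46 promoters, mostly where H3K4me3 was found, and the count depended on which starts were taken. Abcam regions lay at 28 promoters (60.9%) and CST regions at 27 (58.7%), against 46.7% and 41.9% of all genes. Both antibodies were at 26 of 46 (56.5%, exact 95% interval 41.1 to 71.1), against 38.2% of all genes, and in all 26 a region of one antibody overlapped a region of the other (38.0% of all genes). With the most upstream start of each gene only, both antibodies were at 17 of 46 (37.0%), against 33.9% of all genes, and with the canonical start only at 21 (45.7%), against 35.0%. The family had 128 start clusters in 46 genes and all genes 35779 in 19618. H3K4me3 was at 26 of 46 promoters, against 53.1%. All 3 lists had a region at 22 promoters (47.8%, against 33.8%), both antibodies without H3K4me3 were at 4 (8.7%, against 4.41%), and no list had one at 15 (32.6%, against 39.7%).

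Among the 26 receptors with H3K4me3, both antibodies had regions at 22 (84.6%, 65.1 to 95.6), against 63.8% of all genes with the mark. Among the 20 without it they had regions at 4 (exact interval 5.73 to 43.7%), against 9.4%. Such intervals take genes to be independent and allow for counting error alone. Calls were made over all starts of a gene, and the family had 128 start clusters in 46 genes, against 35779 in 19618. How much this added to the shares was not tested. Neighbours share regions: the promoter regions of NR1D2, NR1H3 and RXRB also lay at the promoters of NKIRAS1, ACP2 and SLC39A7.

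By tissue group, all urothelial, immediate early and mesenchymal receptors had ARID1A at a promoter, 3 genes in each group, followed by the broadly expressed ones. Both antibodies were at 3 of 3 urothelial receptors and at 23 of 43 others (53.5%, 37.7 to 68.8), against 38.2% of all genes. With 3 genes the interval for the urothelial receptors starts at 29.2%, and it overlaps that of the others. Within the others, both antibodies were at 11 of 14 broadly expressed receptors (78.6%, 49.2 to 95.3), at all 3 immediate early genes and at 9 of the 26 receptors of other tissues (34.6%, 17.2 to 55.7). Those 9 included all 3 of developing mesenchyme (RARB, NR2F1 and NR2F2). Among the 9, RARB, HNF4G, NR2E3 and ESR2 had both antibodies only at starts other than the canonical one. The intervals of the broadly expressed receptors and of the 26 of other tissues overlap. The latter holds the 38.2% of all genes, and the former lies above it. H3K4me3 was at 13 of 14 broadly expressed receptors (92.9%), 2 of 3 immediate early genes and 8 of the 26 of other tissues (30.8%). The share over all genes was 53.1%. By subfamily, both antibodies were at 12 of 18 NR1 genes, 8 of 12 NR2 genes, 2 of 8 NR3 genes (the steroid and estrogen-related receptors), all 3 NR4 genes, 0 of 2 NR5 genes, the single NR6 gene and 0 of 2 NR0 genes.

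**Figure D2:**
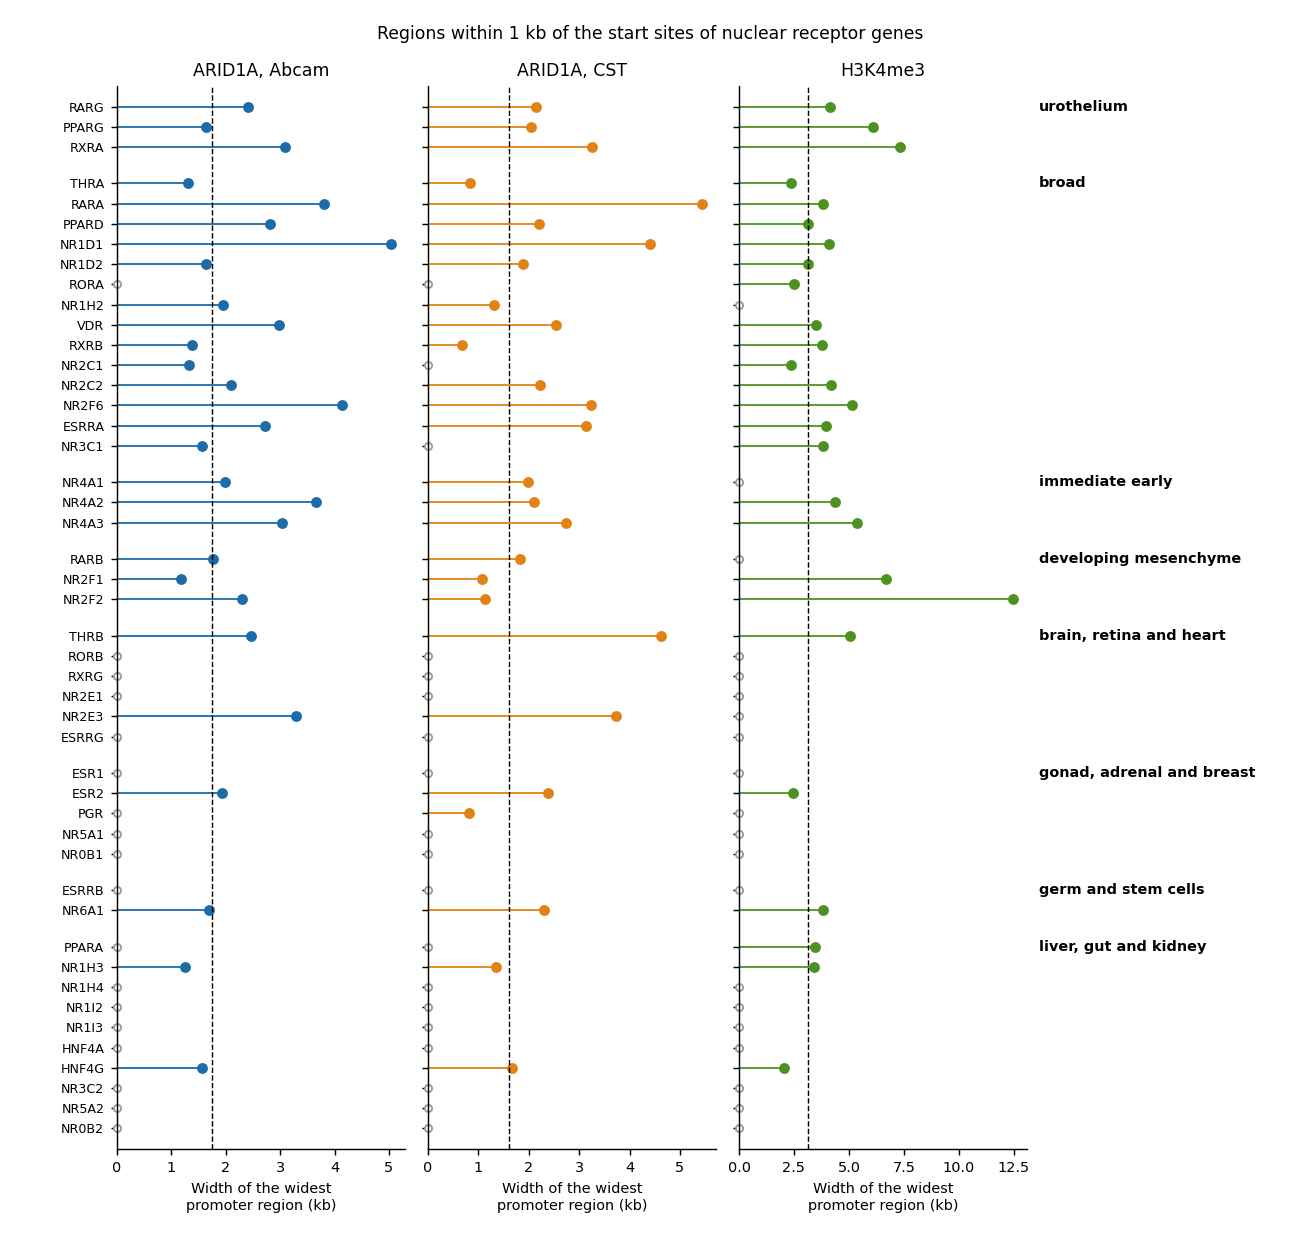
Width in kb of the widest region within 1 kb of a start for each receptor gene, by tissue group, for the 3 lists (each panel has its own scale); open circles mark genes without a region and dashed lines the median over all genes with one. The urothelial and most broadly expressed receptors have regions in all 3 panels, and most receptors of liver, gonad and brain have none.

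Among broadly expressed receptors, NR1D1, the circadian repressor REV-ERBα, had the widest Abcam promoter region of the family, 5041 bp from 40097337 to 40102377 on chromosome 17, wider than 99.0% of the Abcam list. Its CST region measured 4409 bp and its H3K4me3 region 4100 bp. RARA, the retinoic acid receptor best known from blood cells, had the widest CST region, 5444 bp (chromosome 17, 40313571 to 40319014), and an Abcam region of 3801 bp over its internal start at 40318281. The first RARA start had no region of any list.

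NR2F6, an orphan receptor of the COUP-TF group, had an Abcam region of 4127 bp (chromosome 19, 17246480 to 17250606) and a CST region of 3244 bp, both upstream of its first start by at least 561 bp, beside an H3K4me3 region of 5133 bp that spanned the start. ESRRA, a regulator of mitochondrial genes, had regions of 2712 bp (Abcam), 3138 bp (CST) and 3976 bp (H3K4me3). VDR, the vitamin D receptor, PPARD, the broadly expressed PPAR, NR1D2, RXRB, THRA and NR2C2 also had regions of all 3 lists. NR1H2, the oxysterol receptor LXRβ, had Abcam (1946 bp) and CST (1307 bp) regions over the most downstream of its start clusters, without H3K4me3. That cluster holds its canonical start. The nearest H3K4me3 region came within 3 kb of a start but not within 1 kb.

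The members that the antibodies did not share were few. NR3C1, the glucocorticoid receptor, had an Abcam region of 1555 bp (chromosome 5, 143403193 to 143404747) and H3K4me3 of 3838 bp but no CST region. NR2C1, a testicular orphan receptor, had an Abcam region of 1324 bp (chromosome 12, 95072638 to 95073961) with H3K4me3 and no CST region. PGR, the progesterone receptor, had a CST region of 814 bp (chromosome 11, 101128595 to 101129408) and neither Abcam nor H3K4me3. A region in 1 ARID1A list only was found in 3 of 46 members (6.52%), against 12.1% of all genes. PPARA, the fatty acid receptor of the liver, and RORA, a circadian activator, had H3K4me3 without ARID1A (2 of 46, against 9.96%).

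The NR4A genes are immediate early genes induced by many stimuli, and both antibodies had regions at each of them. NR4A2 had an Abcam region of 3658 bp, a CST region of 2098 bp and an H3K4me3 region of 4373 bp. NR4A3 had 3036, 2730 and 5343 bp. NR4A1 had Abcam (chromosome 12, 52050290 to 52052272) and CST (52050356 to 52052338) regions of 1983 bp each over a start cluster at 52051402. This cluster lies downstream of the first start of the gene but holds its canonical start. NR4A1 had no H3K4me3 region at any start, so that of the 3 it was the one without the mark.

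Of the receptors of developing mesenchyme, NR2F2 (COUP-TFII) had the broadest H3K4me3 region of the family, 12474 bp, wider than 99.9% of the list, and NR2F1 (COUP-TFI) one of 6702 bp. Their ARID1A regions were narrower, with 2298 and 1185 bp for Abcam and 1128 and 1066 bp for CST. The widest Abcam and CST regions of NR2F2 lay at different starts. Over the whole lists ARID1A regions were also narrower, with medians of 1486 and 1442 against 3046 bp. RARB, a retinoic acid receptor that is itself induced by retinoic acid, had Abcam (chromosome 3, 25457081 to 25458845) and CST (25457179 to 25458995) regions at its most downstream start, 25458310, and H3K4me3 at none of its 4 start clusters. The region is shown on the plus strand, the strand of the gene (chr3:25457813-25458112), and held none of the 3 words.

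RARB internal region: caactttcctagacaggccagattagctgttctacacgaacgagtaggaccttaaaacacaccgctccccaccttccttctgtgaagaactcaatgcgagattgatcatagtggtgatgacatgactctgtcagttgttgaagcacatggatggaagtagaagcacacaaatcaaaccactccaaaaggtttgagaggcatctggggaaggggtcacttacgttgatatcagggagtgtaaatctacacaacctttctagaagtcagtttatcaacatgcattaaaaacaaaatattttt

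Of the receptors of brain, retina and heart, THRB, the thyroid hormone receptor β, had the most ARID1A. Its first starts had an Abcam region of 2454 bp (chromosome 3, 24493827 to 24496280), a CST region of 4629 bp and H3K4me3 of 5033 bp. NR2E3, the photoreceptor-specific receptor, had an Abcam region of 3298 bp (chromosome 15, 71789635 to 71792932) and a CST region of 3740 bp at its first start, 71792638, without H3K4me3.

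RORB, RXRG, NR2E1 and ESRRG had no promoter region of any list. Of the receptors of the gonads, adrenal gland and breast, ESR2, the estrogen receptor β, had regions of all 3 lists (Abcam 1934 bp, CST 2378 bp, H3K4me3 2435 bp), and ESR1, NR5A1 and NR0B1 had none. NR6A1, the germ cell nuclear factor, had all 3 (1699, 2311 and 3839 bp), and the stem cell receptor ESRRB had none.

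Of the 10 receptors of liver, gut and kidney, both antibodies were at 2. NR1H3, the oxysterol receptor LXRα, and HNF4G, a gut paralogue of HNF4A, had regions of all 3 lists, with widths of 1248, 1345 and 3393 bp at NR1H3 and 1554, 1676 and 2044 bp at HNF4G. The widest Abcam and CST regions of NR1H3 lay at different starts. The bile acid receptor NR1H4, the xenobiotic receptors NR1I2 and NR1I3, HNF4A, the mineralocorticoid receptor NR3C2, NR5A2 and the corepressor NR0B2 had none. The lists show whether a region passed the authors' threshold, so a gene without a region may still carry signal under it.

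Where ARID1A was at a receptor promoter, the median of the widest regions was larger than over all genes. The widest region was taken over all starts of a gene, and more starts give a larger maximum. The family had 128 start clusters in 46 genes, against 35779 in 19618, and how much this added to the widths was not tested. The median width of the widest promoter region was 2040 bp for Abcam over 28 members, against 1741 bp over all genes with one. For CST it was 2149 bp over 27 members, against 1613 bp. For H3K4me3 it was 3838.5 bp over 26 members, against 3156 bp. The ranges of the groups overlapped: Abcam widths ran from 1644 to 3093 bp at the urothelial receptors and from 1185 to 5041 bp at the others, and H3K4me3 widths from 4138 to 7343 bp and from 2044 to 12474 bp. Both antibodies covered at least 1 start in 23 of the 26 members with overlapping regions (88.5%, against 91.9% of such genes). In NR1H3, NR2F1 and NR2F6 no start lay inside regions of both.

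Each receptor's locus was then taken as the gene body plus 50 kb on each side, and Abcam regions that overlapped a CST region were counted as shared regions. At least 1 shared region was found in 39 of 46 loci (84.8%), against 77.3% of all genes. PPARA, RORB, NR1I2, RXRG, ESRRB, NR3C2 and PGR had 0. The loci held 162 distinct shared regions among 200 Abcam and 185 CST regions. Of the Abcam regions 81.0% overlapped CST, against 76.3% of the whole list, and of the CST regions 87.6% overlapped Abcam, against 87.5%. H3K4me3 overlapped 35.8% of the shared regions (28.4 to 43.7), against 22.4% of all shared regions, and 37.7% (30.2 to 45.6) lay at a protein-coding promoter, against 25.3%. Each window was drawn around a protein-coding gene and took in its promoters. All shared regions include those far from genes, so higher shares at the loci are in part built into the windows.

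THRB had the most shared regions, 19, of which 12 were intronic, 2 were at its own starts and 1 overlapped H3K4me3. This was more than at 99.9% of all genes, in a window of 478604 bp. NR6A1 followed with 15 shared regions, 11 of them intronic. RXRA, PPARD and ESRRA had 10 each. Those of RXRA were mostly intronic (7), while 5 of those of ESRRA lay at promoters of neighbouring genes. PPARG had 8 shared regions, with 2 at its own starts, 3 over exons of any coding transcript, 2 downstream and 1 at the promoter of a neighbouring gene. ESR1 had 7, none at a promoter and none with H3K4me3. The nearest lay 19379 bp from a start. RARB had 6.

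**Figure D3:**
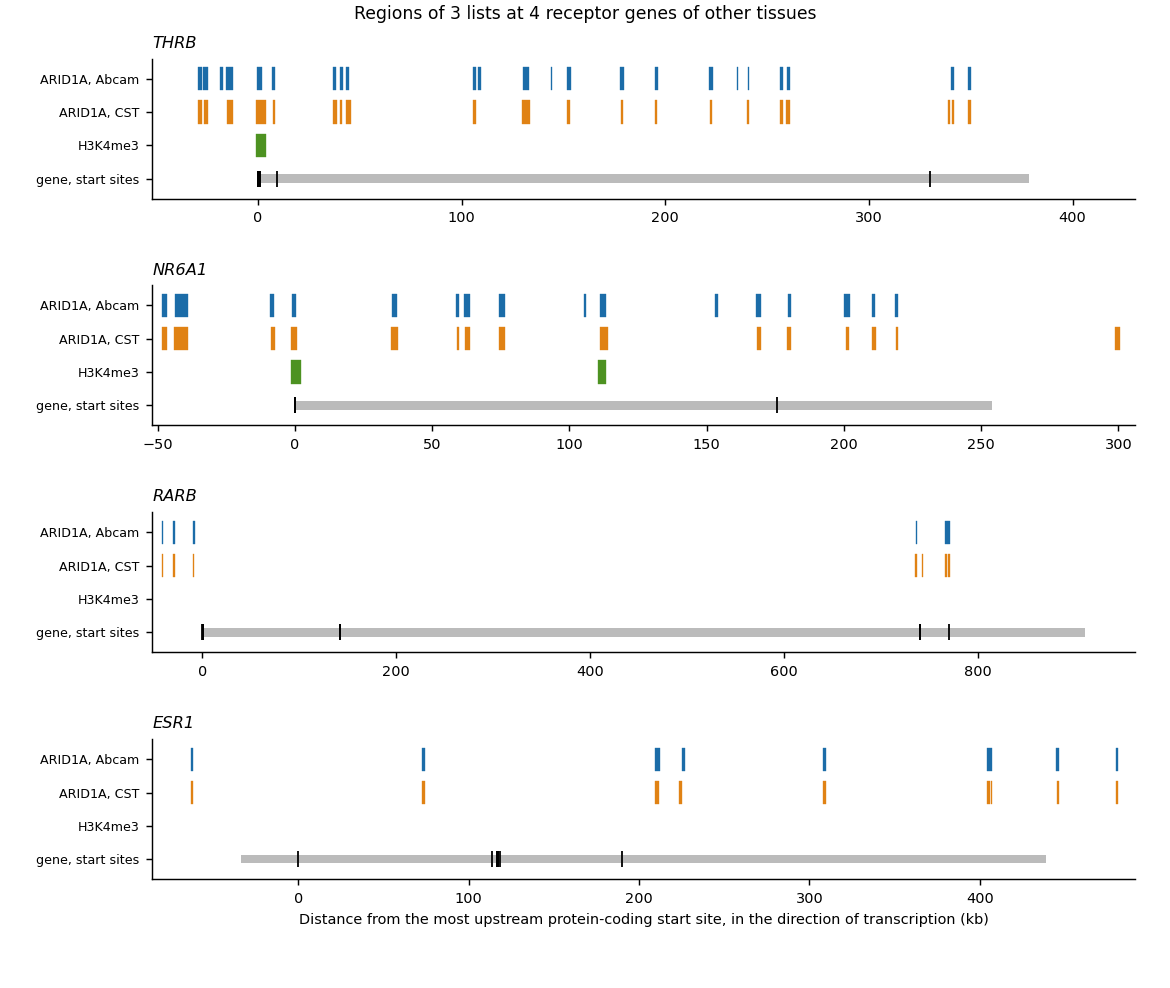
Regions of the 3 lists (bars, to scale) at THRB, NR6A1, RARB and ESR1 against the distance from the first protein-coding start in kb. THRB and NR6A1 have ARID1A bars across their introns with 1 and 2 H3K4me3 bars, and RARB and ESR1 have ARID1A bars with none.

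Locus length sets much of these counts, so they were also expressed per 100 kb. The median density was 1.5 shared regions per 100 kb over the 46 loci, against 1.4 over all genes. It was 3.27 for the 3 urothelial receptors (PPARG 3.24, RARG 3.27 and RXRA 4.47), which exceeded 81.0, 81.2 and 90.3% of all genes. It was 1.38 for the 43 others, 2.31 for the broadly expressed ones and 0.845 for the 26 of other tissues. The groups overlapped, since 8 of the 43 others had higher densities than PPARG and RARG.

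ESRRA had the highest density, 8.99 per 100 kb, above 99.6% of genes, in a window dense with other genes. PPARD followed with 5.39. NR6A1 had 4.24, THRB 3.97, NR0B2 3.9, NR1D1 3.71 and THRA 3.69. NR1D1 and THRA are neighbours whose windows overlap and share regions. NR0B2 had no region at its own promoter, and 2 of its 4 shared regions lay at the promoters of SFN and NUDC. The median was higher for receptors with H3K4me3 at the promoter, 2.31, than for those without it, 0.693, against 1.84 and 0.827 over all genes.

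**Figure D4:**
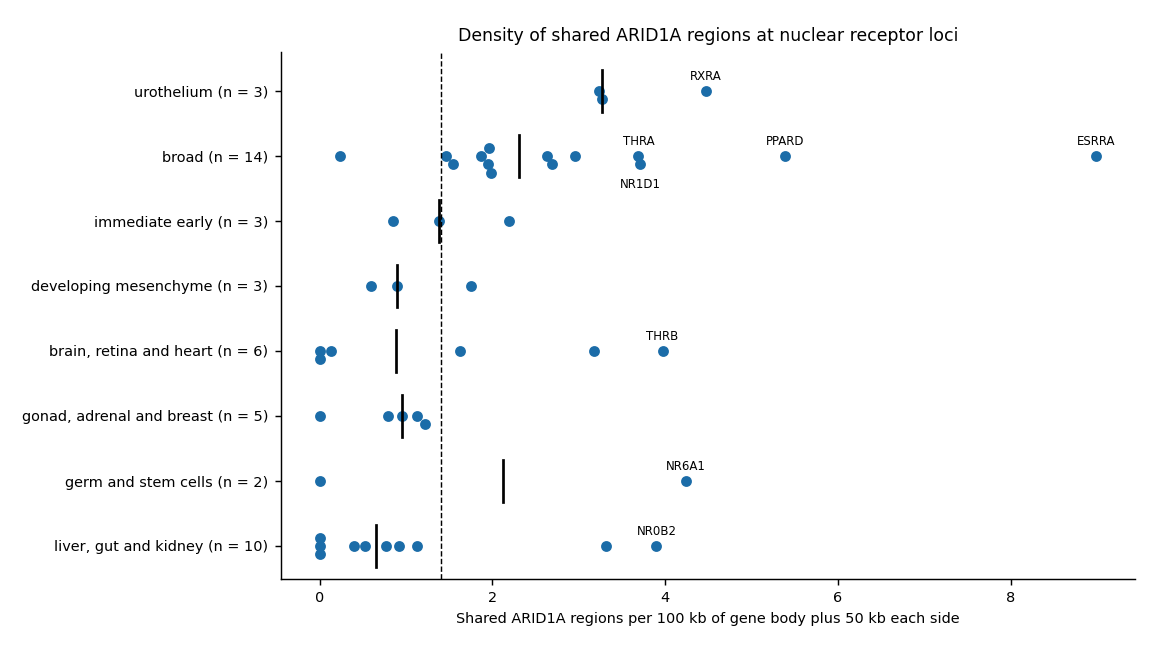
Shared ARID1A regions per 100 kb of gene body plus 50 kb each side, 1 point per receptor gene by tissue group, with group medians as bars and the all-gene median of 1.4 as a dashed line; points are shifted vertically where they coincide. The 3 urothelial receptors lie between 3.24 and 4.47, and ESRRA at 8.99.

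Shared regions of receptors without a promoter region are shown at a pair of loci. HNF4A, the hepatocyte receptor, had 2 shared regions, the nearer 2248 bp from a start in an intron. Its centre (chr20:44398450-44398749, plus strand) held 1 half-site and 2 AP-1 words. The intronic region of ESR1 shown here (chr6:152096192-152096491, plus strand) lay 214069 bp from the nearest start and held 1 half-site and 1 AP-1 word. The half-site was in 1 of the 2 shared regions at HNF4A and in 1 of the 7 at ESR1, in each case the one shown. The AP-1 word was in 2 of 2 and in 4 of 7.

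HNF4A intronic region: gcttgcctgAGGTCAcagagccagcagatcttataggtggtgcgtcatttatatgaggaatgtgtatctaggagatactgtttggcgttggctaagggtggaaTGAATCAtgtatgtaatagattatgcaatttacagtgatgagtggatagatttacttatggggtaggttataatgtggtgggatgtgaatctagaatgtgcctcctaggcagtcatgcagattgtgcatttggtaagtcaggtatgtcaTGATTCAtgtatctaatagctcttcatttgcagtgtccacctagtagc

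ESR1 intronic region: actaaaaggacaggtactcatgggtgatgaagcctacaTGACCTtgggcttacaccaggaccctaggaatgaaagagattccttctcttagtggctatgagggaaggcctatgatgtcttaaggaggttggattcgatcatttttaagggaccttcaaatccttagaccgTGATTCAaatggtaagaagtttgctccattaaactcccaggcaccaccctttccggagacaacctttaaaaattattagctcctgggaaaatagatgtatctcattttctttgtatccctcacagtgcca

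Sequence words were counted in the central 300 bp of the Abcam regions that made up the 162 shared regions, on both strands, and compared with the 28606 shared regions of the genome that could be read. The receptor half-site AGGTCA was in 17.9% of the regions at receptor loci, against 18.8%. The steroid receptor half-site AGAACA was in 15.4%, against 19.4%. The AP-1 word TGANTCA was in 23.5%, against 27.4%, and the GC box GGGCGG in 27.8%, against 19.5%. The TEAD word GGAATG was in 16.0% (19.1%), an order that turned over whole regions (73.5 against 65.2%). The GATA word AGATAA was in 14.2% (17.0%), the ETS word CGGAAG in 10.5% (8.48%), the forkhead word TGTTTAC in 4.32% (6.45%) and the grainyhead word AACCNGTT in 2.47% (3.54%). The intervals at the receptor loci held the value for all shared regions for each word but the GC box, whose interval was 21.0 to 35.3%.

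A larger share of the shared regions lay at promoters in the receptor loci, whose windows were drawn around genes. GC boxes are common at promoters, so regions at promoters and away from them were taken apart. At promoters the GC box was in 47.5% of 61 regions, against 56.0%. Away from promoters it was in 15.8% of 101 regions (9.33 to 24.4), against 7.08%, and the AP-1 word was in 33.7%, against 33.7%. The median GC content of these 101 windows was 44.3%, against 43.7% for all shared regions away from promoters. Without the RXRA and ESRRA loci, left out after the values were seen, the GC box was in 13.5% of 89 regions (7.17 to 22.4). The half-site was in 13.1% at promoters (11.9%) and in 20.8% away from them (21.2%).

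**Figure D5:**
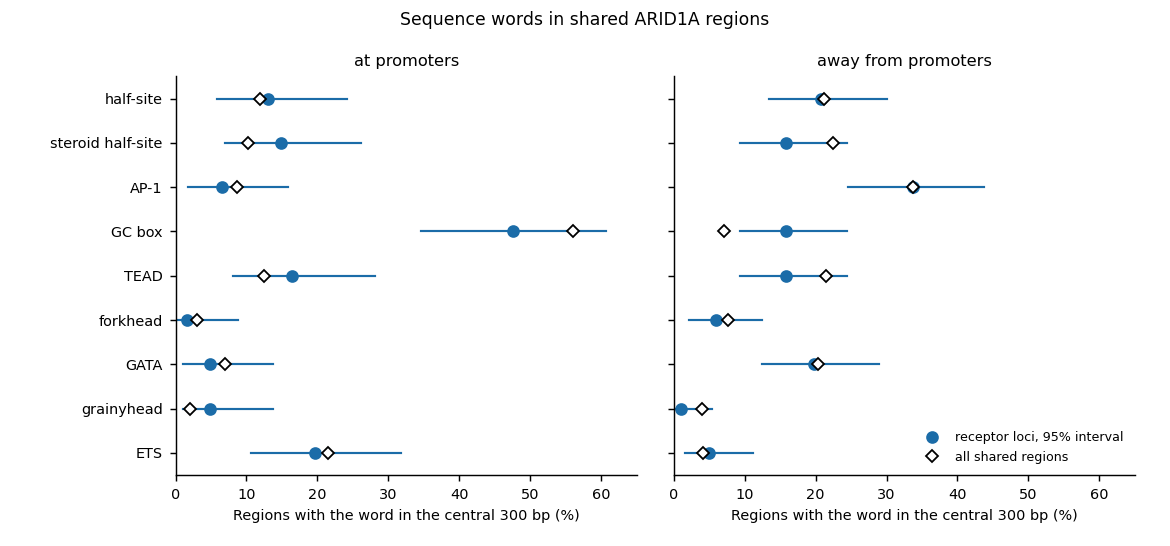
Percent of shared ARID1A regions whose central 300 bp hold each word, at promoters (61 regions) and away from them (101), for receptor loci (points, with exact 95% intervals) and for all shared regions (diamonds). The GC box away from promoters, 15.8% against 7.08%, is the word whose interval leaves out the genome value.

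The half-site occurred unevenly among the loci. It was in 4 of the 8 regions of PPARG, with 6 occurrences, in 4 of 15 at NR6A1 and in 3 of 10 at ESRRA. None of the 10 regions of RXRA or the 4 of RARG held it. GC boxes were in 5 of 10 regions of RXRA, and the median GC content of the regions was 64.5% at RXRA, 64.7% at RARG and 45.9% at PPARG.

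Direct repeats of the half-site spaced by 1 base (AGGTCANAGGTCA, bound by PPAR and RXR), by 4 (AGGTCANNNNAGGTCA, bound by LXR or thyroid receptor with RXR) and by 5 (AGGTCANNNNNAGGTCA, bound by RAR and RXR) were in 0 of 162 central windows, which allows up to 2.25% by the exact interval, and in 8, 4 and 5 of 28606. Exact words miss degenerate sites. A repeat without spacer was found in the NR3C1 locus, in an intron (chr5:143418837-143418888, minus strand), within an Abcam region from 143417915 to 143419132. It lay outside the central 300 bp of that region, and the frequency of such repeats over all shared regions is not given here.

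NR3C1 repeat: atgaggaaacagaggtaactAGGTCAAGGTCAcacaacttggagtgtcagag

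At the RefSeq promoters, from 250 bases before to 50 after the start (hg38), 41 of 46 members were matched. The half-site was in 7 of them (17.1%), against 11.5% of 15278 genes: RARA, PPARG, NR1H3, NR1H4, RXRG, NR5A2 and NR0B1. The first 3 of these genes had both ARID1A antibodies within 1 kb of some start, but none had both at the stretch searched. At the first start of RARA no list had a region, at that of NR1H3 the Abcam list had a region and the CST list none, and the PPARG stretch lay outside the regions as given above. The other 4 genes had no promoter region. The GC box was in 23 (56.1%, against 59.2%). The median GC content was 62.4% for matched members with both antibodies and 60.0% for the others, with median CpG counts of 23.5 and 15.0, against 65.3 and 60.7% and 26.0 and 18.0 over all genes.

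The genes that work with the receptors were then listed. Of 16 coactivators and corepressors, both antibodies were at 14 promoters (87.5%) and H3K4me3 at 15, against 38.2 and 53.1% of all genes. NCOA3, a p160 coactivator, had an Abcam region of 3628 bp and a CST region of 3500 bp, and 11 shared regions in its locus. LCOR, a ligand-dependent corepressor, had 1913 and 4824 bp. CREBBP, an acetyltransferase, had a CST region of 1290 bp and H3K4me3 and no Abcam region. PPARGC1A, the coactivator of oxidative tissues, had none.

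Target genes were less uniform. Of 12 PPAR targets, 6 had both antibodies and 4 had H3K4me3, against 38.2 and 53.1% of all genes. FABP4, a fatty acid binding protein, had regions of all 3 lists (2161, 2803 and 5310 bp) and 7 shared regions in its locus. ANGPTL4 and ACSL1 were among those with both antibodies without H3K4me3, and ADIPOQ, CD36, LPL and PDK4 were among those with no region. Of 13 genes of the retinoic acid pathway, 6 had both (46.2%) and 5 had H3K4me3 (38.5%), against the same 38.2 and 53.1%. RDH10, which makes retinaldehyde, had 3086, 3472 and 6755 bp, and DHRS3, which reduces it, 2507, 2786 and 7851 bp. STRA6, the retinol transporter, had both antibodies (2444 and 3842 bp) without H3K4me3. CYP26B1, which breaks down retinoic acid, had H3K4me3 alone, and CYP26A1 had no region.

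Of 8 glucocorticoid receptor targets, 6 had both antibodies and 5 had H3K4me3, against 38.2 and 53.1% of all genes. Among them, DUSP1 had regions of all 3 lists (4374, 2665 and 4312 bp) and 11 shared regions in its locus. Of 7 LXR and VDR targets, 4 had both (57.1%) and 5 had H3K4me3 (71.4%), against the same shares of all genes. SREBF1, the lipogenic factor, had 6950 bp for Abcam and 5661 bp for CST. CYP24A1, which breaks down vitamin D, had an H3K4me3 region of 4506 bp and no ARID1A at its promoter, while its locus held 16 shared regions, at 13.3 per 100 kb the highest density of the 19618 genes.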

How the data were processed

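CUT&RUN regions came from 3 lists of RT112 cells. Per the study's methods and the submitters' processing notes, the authors trimmed reads with cutadapt, aligned them to the human and E. coli genomes, removed duplicates with Picard, scaled replicates by spike-in reads, called peaks with SEACR and merged replicate peaks with bedtools (hg38; versions not given in the sources used here). SEACR's mode is relaxed in the methods but stringent in the lists' names, so the threshold is uncertain. The deposited lists hold other values than counts or signal: chromosome, start and end, 1 merged list per antibody, in which a region may rest on a single replicate. Depth is unknown, no test was run, and IgG regions were not analysed here.

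Positions were read with Python 3.11.15, numpy 2.4.6, scipy 1.17.1 and pysam 0.24.0 on GENCODE 44 and hg38, chromosomes 1 to 22 and X, and regions on other sequences were dropped (152 Abcam, 159 CST, 14 H3K4me3). Positions count from 1. Genes sharing a symbol were pooled. Intervals are exact 95% Clopper-Pearson intervals and cover counting error only. The counting was tested on simulated data. The members, tissue groups, gene lists and words were chosen with earlier results of these data known. Other genes of the family were not analysed here. Every member was named, with coordinates for the urothelial receptors, for up to 4 others per tissue group with the widest regions and for those with 1 antibody only or without H3K4me3. The 8 loci with the most and the 8 with the densest shared regions were named, and from each gene list up to 4 genes with the widest regions and up to 4 without ARID1A. Some genes and sequences that this rule takes are not given here. ANGPTL4 and CREBBP fell outside this rule and were named after their values were seen. Sequences were planned for the 3 urothelial receptors and for direct repeats of the half-site, so those of RARB, HNF4A and ESR1 fell outside the plan. Alternatives were narrower (500 bp) and wider (3 kb) promoters, only the most upstream or canonical start, other flanks, a 50% overlap, wide regions only, joined regions and other motif windows.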

Additional observations from a re-analysis of the deposited data

How the results depend on the processing

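No paired analysis was possible because each list merges the 3 replicates, and for the same reason no replicate could be left out. Of 114 values under alternative settings, 95 stayed within the counting interval (percentages) or within 1.5 times (counts and densities) and 19 moved further. These are counts and shares without a sign. With the most upstream start only, both antibodies were at 17 of 46 promoters and at 15 of 43 receptors outside the urothelial group (2 of 3 within it), since THRA, RARA, RARB, PPARG, NR1H2, NR1H3, VDR, NR4A1 and NR4A2 carry ARID1A at later starts. All genes fell to 33.9% under the same setting. With the canonical start 21 members remained, without RARA, RARB, HNF4G, NR2E3 and ESR2. With windows of 500 bp 25 remained (without NR2F6), and with 3 kb there were 27 (with HNF4A). The gene body alone held 96 distinct shared regions, with a median of 1.62 per 100 kb against 0.0 over all genes. That 0.0 arises because only 49.2% of all genes had a shared region in the gene body, and gene lengths were not matched. With the 50 kb flanks the medians were 1.5 and 1.4. An overlap of at least 50% of both regions left 74.0% of Abcam regions and 80.0% of CST regions shared. Keeping only regions of median width or more gave 82 distinct shared regions, 0.651 per 100 kb (0.541 over all genes) and 71.3% of Abcam regions shared. The half-site was in 11.7% of central 200 bp windows (12.9% of all shared regions) and in 67.9% of whole regions (69.0%), the AP-1 word in 60.5% of whole regions (67.6%) and the GC box in 54.3% (40.9%). The TEAD word, less frequent at receptor loci than in all shared regions in 300 bp windows (16.0 against 19.1%), was more frequent in whole regions (73.5 against 65.2%). A longer window holds more words by its length. The depth behind each region is unknown, so a missing region is not evidence that ARID1A is absent.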
